A study of Ovis aries with 12 samples.

Results

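The genes described here encode the secreted plasma proteins that vertebrate embryos make in the yolk sac and the liver: carriers, protease inhibitors, coagulation proteins and complement. They were taken from a list of 42 symbols, and a listed gene belonged to the set when its symbol in the deposited table was on that list. Of the 42 symbols, 37 stood in the table, among 26247 listed genes. The other 5 (C3, CFB, F7, ORM1 and PLG) were listed under an identifier alone and were matched by NCBI gene number. Those 5 are given apart from the 37 and enter no count of members. AMBN, which encodes the enamel matrix protein ameloblastin and no plasma protein, was on the list and is counted as given.

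Plasma proteins reach the circulation by secretion from hepatocytes, and before the liver is in place the visceral endoderm of the yolk sac makes many of the same ones. Alpha-fetoprotein, transferrin, transthyretin and apolipoproteins are classical products of both, and albumin replaces alpha-fetoprotein as the leading carrier later in life. Fetuin-A is a major plasma protein of ruminant fetuses. Transcription factors of the HNF1, HNF4, FOXA and CEBP families are known to act on many of these genes.

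RNA was sequenced from whole embryos of Hulunbuir Short-tail Sheep, which the submitters name as their experimental group, and of Ujumqin sheep, their control group. Embryos of each breed were taken at 25 and at 16 days and, per the series' design text, were dispersed with enzymes into single cells before RNA-seq in bulk. This gave 4 groups of 3 libraries: Hulunbuir day 25, Ujumqin day 25, Hulunbuir day 16 and Ujumqin day 16. No mutation or drug treatment is named for any group. The sources used here do not say whether the embryos were taken with their membranes, whether each library was a single embryo, or whether separate ewes gave the 3 libraries of a group. The p-values therefore measure the spread between these libraries, which may be technical.

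Total counts per library were 32625184 to 39643588 in Hulunbuir day 25, 30464606 to 33171681 in Ujumqin day 25, 43131962 to 51241161 in Hulunbuir day 16 and 49944437 to 55455815 in Ujumqin day 16. Variation within a group, as edgeR's biological coefficient of variation, came to 18.1% at day 25 and to 43.8% at day 16. Values are the deposited FPKM, fragments scaled by gene length and library size, listed in the order of replicates 1, 2 and 3; an FPKM of 0.0001 stands for a count of 0. Log2 changes are on counts scaled with TMM and are given with their standard errors. A gene was called when its p from the quasi-likelihood test of edgeR, adjusted by Benjamini-Hochberg over all 14595 genes tested, was under 0.05. A gene was tested when it reached 1 FPKM in at least 3 of the 12 libraries, which 35 of the 37 members did. F9, F10, F13B, GC and ITIH1 passed only through the Hulunbuir day 25 libraries. Their calls of higher values in that group, between breeds or with age, were favoured by the filter and add no support. CP, the copper carrier ceruloplasmin, reached at most 0.516 FPKM and AMBN at most 0.280 FPKM, and neither was tested. In whole embryos, fewer cells that make a transcript and less of it per cell cannot be told apart.

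The 37 members held 3.74% to 4.03% of all counts in Hulunbuir day 25 libraries and 0.975% to 1.52% in Ujumqin day 25 libraries. At day 16 they held 0.672% to 2.61% of counts in Hulunbuir and 4.66% to 11.6% in Ujumqin. The breed with the larger share was thus Hulunbuir at day 25 and Ujumqin at day 16, with no overlap between breeds at either age. AHSG, which encodes fetuin-A, alone made up 46.7% to 47.5% of the members' summed FPKM in Hulunbuir day 25 libraries, 35.9% to 37.8% in Ujumqin day 25, 38.2% to 56.5% in Hulunbuir day 16 and 49.0% to 51.7% in Ujumqin day 16. A mean of at least 10 FPKM was reached by 27 members in Hulunbuir day 25, 20 in Ujumqin day 25, 16 in Hulunbuir day 16 and 20 in Ujumqin day 16. At day 16, 1 library of each breed stood apart from the others of its group: Hulunbuir replicate 2, at 2.61% of counts, and Ujumqin replicate 3, at 11.6%. Where a called change given here moved by more than 1.5-fold without either, its value without that library is given too.

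**Figure D1:**
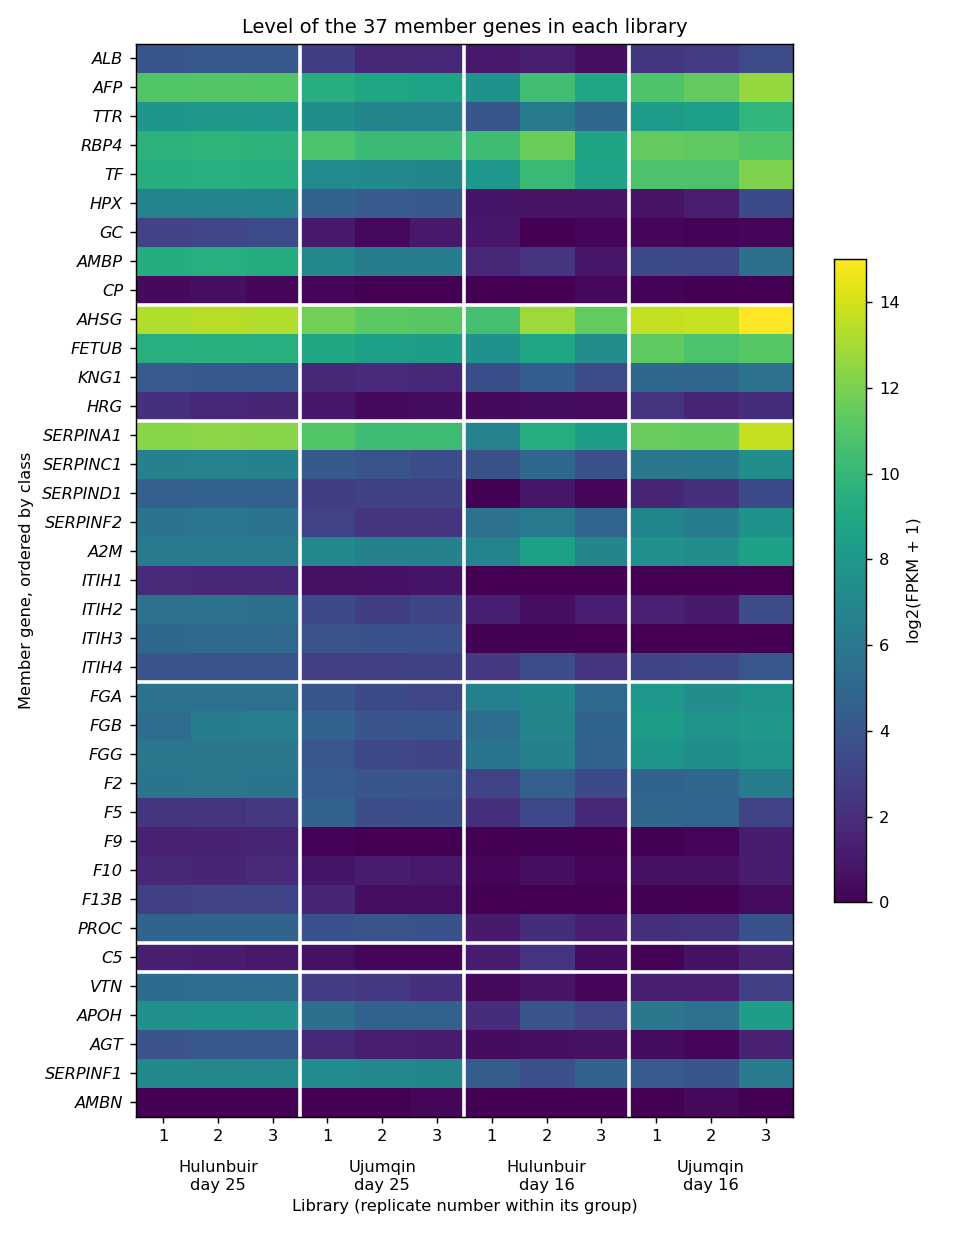
Level of the 37 members in the 12 libraries, as log2(FPKM + 1); each line is a gene, ordered by class, each column is a library, and white lines part the groups and the classes. AHSG and SERPINA1 are the brightest lines, and HPX, GC, AMBP, ITIH1, ITIH3 and F13B are brighter at day 25 than at day 16 in both breeds.

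At day 25, transcripts of most of the plasma proteins were higher in Hulunbuir embryos than in Ujumqin embryos. Of the 35 members tested, 31 were called higher and 4 were called lower. The 31 include F9, F10, F13B, GC and ITIH1, which passed the filter only through Hulunbuir day 25 libraries. Without the filter, 31 members were called higher and 4 lower. Over all genes tested, 23.3% were called higher and 22.7% lower. The median log2 change of the members was 1.65, against 0.03 over all genes tested. The 4 that were lower were F5, RBP4, A2M and SERPINF1. All 31 higher members lay above the Ujumqin libraries without overlap in FPKM. The share of all genes tested that lay apart in this way was not computed at day 25, so that count has no background. By class, 7 of 8 carriers, 4 of 4 cystatin-domain proteins, 8 of 9 protease inhibitors, 8 of 9 coagulation genes, the complement gene C5 and 3 of the 4 others were called higher. On log2(FPKM + 1), without TMM scaling, the median difference over all tested genes was 0.29 between breeds at day 25, 0.12 between ages in Hulunbuir and -0.15 between ages in Ujumqin. With the spread estimated over all 12 libraries, 15 of the 35 calls remained.

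At day 16, most members had lower values in Hulunbuir embryos, but none was called. A negative log2 change was found for 31 members and a positive one for 4, with a median of -2.14, against 0.01 over all genes tested. Adjusted p ran between 0.1004 and 0.79. Unadjusted p was under 0.05 for 25 members, all of them lower in Hulunbuir, and for 20.2% of all genes tested. Over all genes, 0.0137% were called higher and 0.00685% lower. In 22 members the Hulunbuir libraries lay below the Ujumqin libraries without overlap, and in 1, ITIH3, above them; of all genes tested, 10.8% lay below and 13.6% above in this way. With the replicate number as a block, which paired the day 16 libraries, none of the members was called, with a lowest adjusted p of 0.0533, while the calls over all genes numbered 293 instead of 3. Other tools gave other counts: DESeq2 on the same libraries called 21 members lower, voom with group weights called 12, and edgeR with the spread of all 12 libraries called 24, of which 23 were lower and 1 higher. Over all genes, in either direction, DESeq2 called 1608, voom 487 and edgeR on all 12 libraries 2459.

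**Figure D2:**
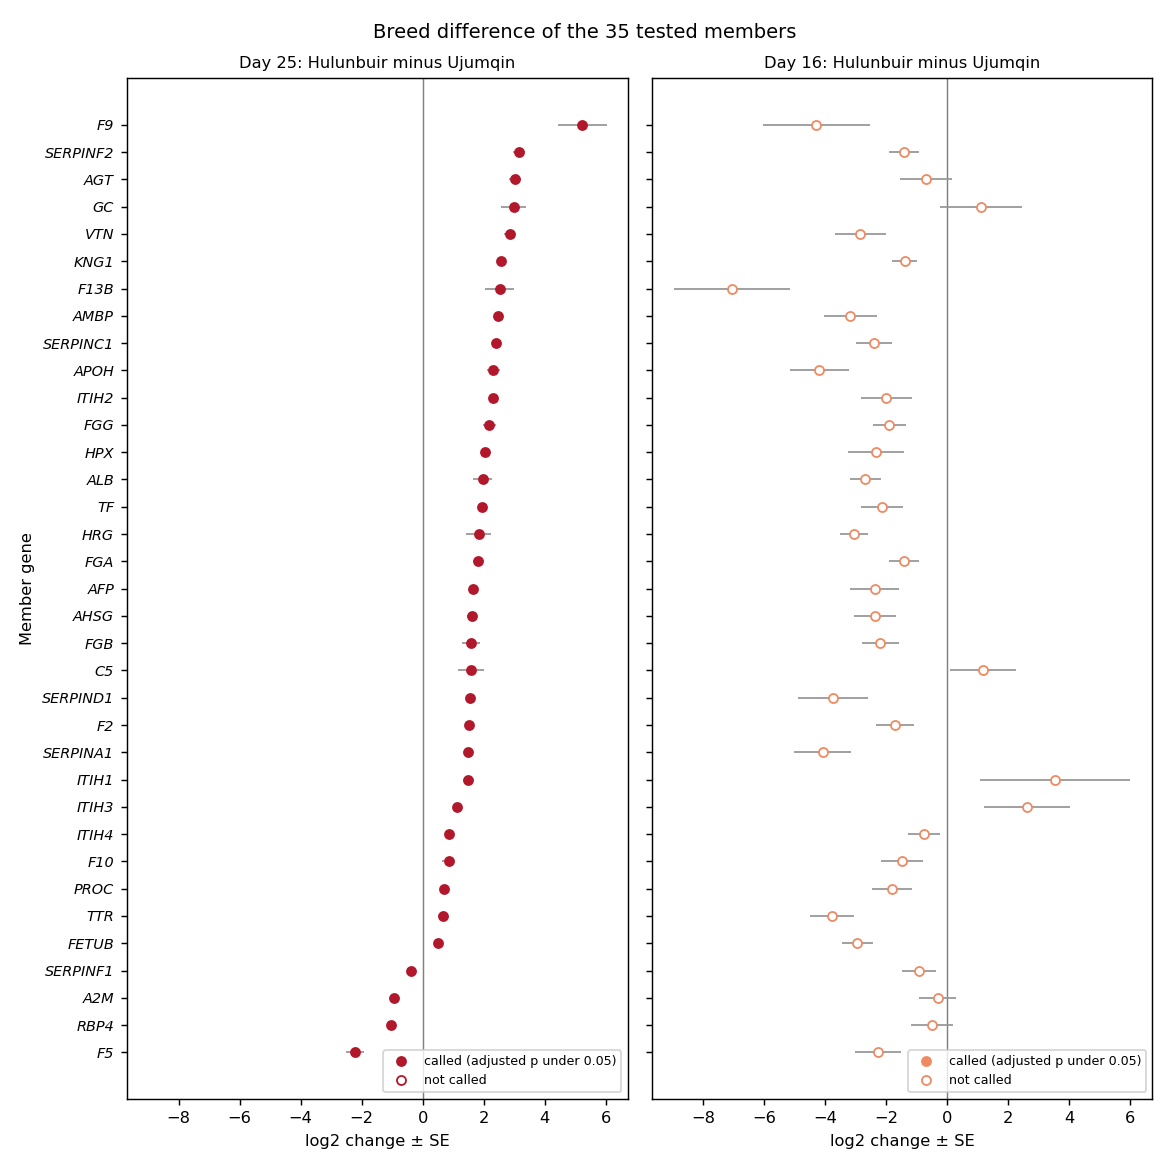
Log2 change of the 35 tested members, Hulunbuir minus Ujumqin, at day 25 (left) and day 16 (right), with standard errors; filled points have an adjusted p under 0.05. At day 25, 31 points lie right of 0 and 4 left of it, and at day 16 all points are open and 31 lie left of 0.

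With age, the members moved differently in the breeds. In Hulunbuir, 22 of the 35 were higher at day 25 than at day 16 and 1, A2M, was lower, against 18.9% and 21.6% of all genes tested. Without Hulunbuir day 16 replicate 2, 27 were higher and 0 lower. In Ujumqin, 7 were higher and 15 lower at day 25, against 30.7% and 32.9% of all genes tested. Without Ujumqin day 16 replicate 3, 10 were higher and 11 lower, and with the replicate block 8 were higher and 13 lower. The median log2 change was 2.56 in Hulunbuir and -0.996 in Ujumqin, against -0.04 and -0.07 over all genes tested. The same 7 genes (ITIH3, ITIH1, AMBP, GC, SERPINF1, F13B and HPX) were called higher at day 25 in both breeds. Another 7 (F2, TTR, SERPINC1, SERPINA1, APOH, HRG and FETUB) were called higher in Hulunbuir and lower in Ujumqin. A further 8 (FGA, FGB, FGG, TF, AFP, SERPINF2, KNG1 and AHSG) were called lower in Ujumqin and not called in Hulunbuir, and 8 (AGT, F9, F10, ITIH2, ALB, PROC, SERPIND1 and VTN) were called higher in Hulunbuir and not called in Ujumqin. ITIH4, RBP4, C5 and F5 were called in neither. Shares of all genes tested were not computed for these combinations of calls, so they describe the members alone.

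The difference between the breeds in their age change was tested directly, as the change in Hulunbuir minus the change in Ujumqin. It was called for 25 of the 35 members, all of them positive, and for none negative. Over all genes tested, 8.89% were called positive and 10.3% negative. The 10 members not called were RBP4, GC, A2M, ITIH1, ITIH3, ITIH4, F5, F10, C5 and SERPINF1. Without Hulunbuir day 16 replicate 2, 27 members were called, and without Ujumqin day 16 replicate 3, 25.

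**Figure D3:**
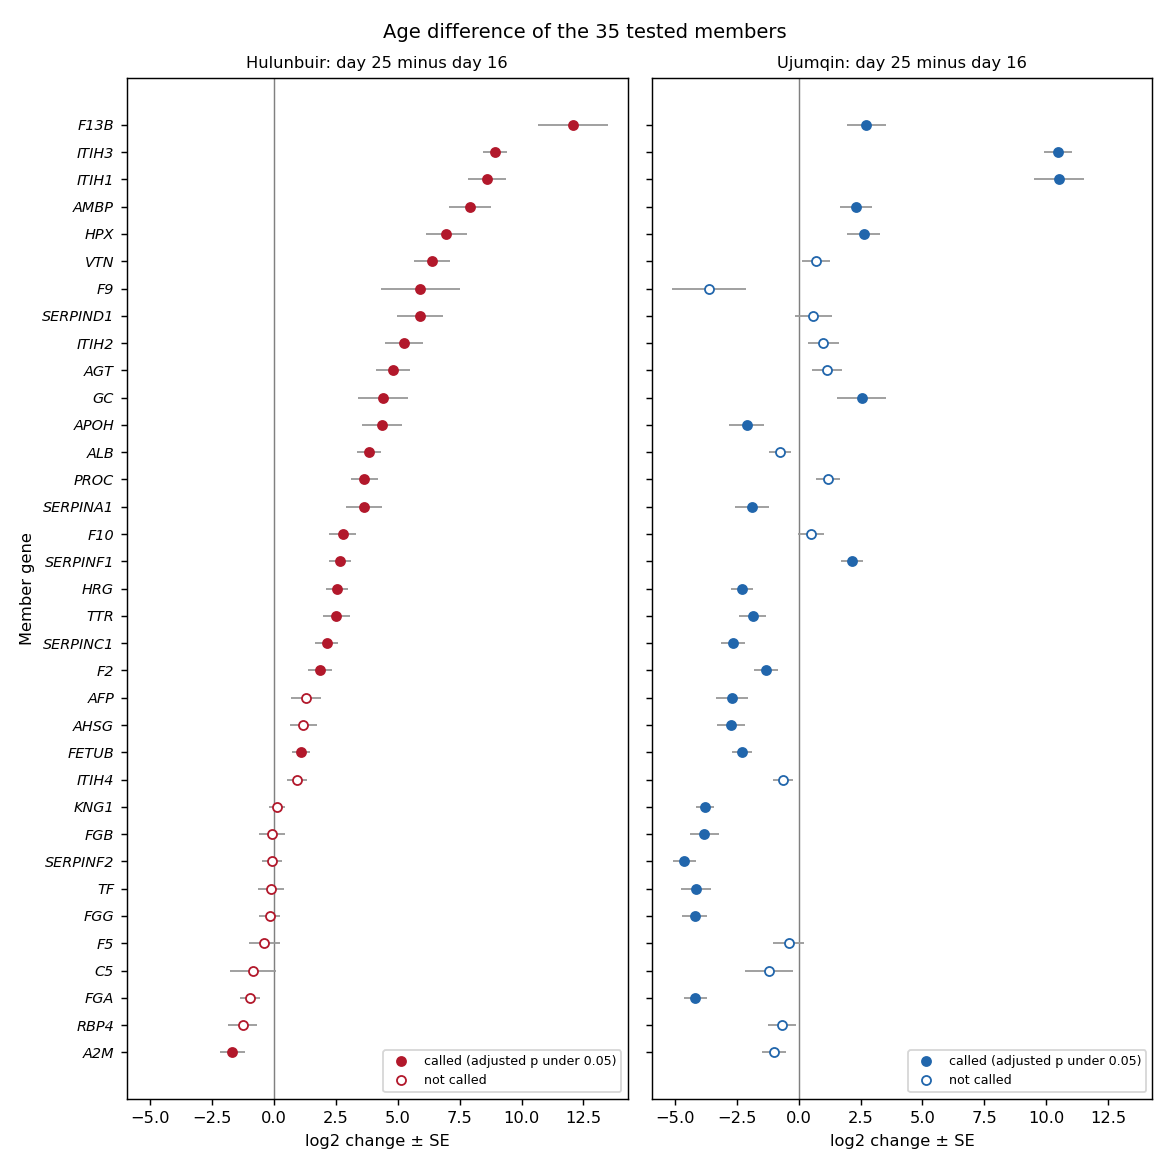
Log2 change of the 35 tested members between day 25 and day 16, in Hulunbuir (left) and Ujumqin (right), with standard errors; filled points have an adjusted p under 0.05. F13B, ITIH3, ITIH1, AMBP, HPX, GC and SERPINF1 are filled and right of 0 in both panels, while SERPINF2, FGG, FGA and TF are filled and left of 0 in the Ujumqin panel.

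The carriers AFP and ALB lie side by side on chromosome 6 (chromosome 6, 88166794 to 88190190 and chromosome 6, 88136611 to 88159187 in Oar_v3.1). AFP, the main carrier of fetal plasma, was at 1947, 2056 and 1999.6 FPKM in Hulunbuir day 25 embryos and 658, 455 and 422 FPKM in Ujumqin day 25 embryos. At day 16 AFP was at 213, 1372 and 459.7 FPKM in Hulunbuir day 16 embryos and 1857, 2669 and 6456 FPKM in Ujumqin day 16 embryos. The day 25 libraries of Hulunbuir stood above those of Ujumqin, and at day 16 the order was the other way, with Hulunbuir replicate 2 the nearest to Ujumqin. The log2 change between breeds was 1.65 ± 0.13, adjusted p = 6.25e-05 at day 25 and -2.39 ± 0.81, adjusted p = 0.179 at day 16. AFP was lower at day 25 than at day 16 in Ujumqin (-2.68 ± 0.65, adjusted p = 0.00403), and its log2 change was -2.06 without replicate 3 of day 16.

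ALB, the gene of serum albumin, was far lower, at 15.3, 18.1 and 17.3 FPKM in Hulunbuir day 25 embryos and 5.9005, 2.27 and 2.35 FPKM in Ujumqin day 25 embryos. At day 16 ALB was at 1.04, 1.44 and 0.545 FPKM in Hulunbuir day 16 embryos and 4.47, 5.297 and 9.79 FPKM in Ujumqin day 16 embryos. Its libraries followed the order of AFP at each age, with no overlap between the breeds. ALB was higher in Hulunbuir at day 25 (1.97 ± 0.31, adjusted p = 0.00126) and, within Hulunbuir, higher at day 25 than at day 16 (3.85 ± 0.50, adjusted p = 2.16e-04), while in Ujumqin the age change was not called (-0.76 ± 0.45, adjusted p = 0.154). The ratio of AFP to ALB in FPKM was 113 to 127 in Hulunbuir day 25 libraries and 112 to 200.5 in Ujumqin day 25 libraries. At day 16 it was 205 to 951 in Hulunbuir and 416 to 659 in Ujumqin. On the deposited FPKM, AFP thus exceeded ALB by more than 100 times in each library, which depends on the gene lengths used for scaling. Raw counts gave a smaller ratio. In Hulunbuir day 25 they were 288574, 250953 and 273637 for AFP and 4500, 4385 and 4702 for ALB.

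TTR and RBP4 form the complex that carries thyroxine and retinol in plasma, and they differed in their pattern. TTR, transthyretin, was at 246, 273 and 257 FPKM in Hulunbuir day 25 embryos and 176, 113 and 106 FPKM in Ujumqin day 25 embryos. At day 16 TTR was at 15.1, 68.6 and 31.1 FPKM in Hulunbuir day 16 embryos and 312, 351 and 935 FPKM in Ujumqin day 16 embryos. Hulunbuir libraries were the higher at day 25 and the lower at day 16, with no overlap at either age. The breed difference was 0.66 ± 0.15, adjusted p = 0.00812 at day 25 and -3.78 ± 0.73, adjusted p = 0.1004 at day 16. TTR rose with age in Hulunbuir (2.52 ± 0.56, adjusted p = 0.00463; 3.46 without day 16 replicate 2) and fell in Ujumqin (-1.86 ± 0.55, adjusted p = 0.0113), the fall losing its call without Ujumqin day 16 replicate 3 (log2 change -1.24, adjusted p = 0.0514).

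RBP4, the retinol carrier (chromosome 22, 14598701 to 14604325), was at 814, 858 and 836 FPKM in Hulunbuir day 25 embryos and 1732, 1200.5 and 1203 FPKM in Ujumqin day 25 embryos. At day 16 RBP4 was at 1316, 3232 and 431 FPKM in Hulunbuir day 16 embryos and 2709.6, 2533 and 1967 FPKM in Ujumqin day 16 embryos. At day 25 each Hulunbuir library lay below each Ujumqin library, and at day 16 Hulunbuir replicate 2 was the highest of the 12. RBP4 was lower in Hulunbuir at day 25 (-1.04 ± 0.12, adjusted p = 2.79e-04), while the day 16 difference (-0.51 ± 0.70, adjusted p = 0.704) and both age changes were not called.

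TF, the iron carrier transferrin (chromosome 1, 253633735 to 253672933), was at 663, 677 and 659 FPKM in Hulunbuir day 25 embryos and 152, 142 and 118 FPKM in Ujumqin day 25 embryos. At day 16 TF was at 259, 1146 and 406 FPKM in Hulunbuir day 16 embryos and 1784, 1836 and 4499.6 FPKM in Ujumqin day 16 embryos. Ujumqin day 25 libraries were the lowest of the 4 groups and Ujumqin day 16 libraries the highest. TF was higher in Hulunbuir at day 25 (1.96 ± 0.09, adjusted p = 3.83e-06), was lower at day 25 than at day 16 in Ujumqin (-4.14 ± 0.59, adjusted p = 1.21e-04) and was not called with age in Hulunbuir (-0.11 ± 0.52, adjusted p = 0.887). The day 16 breed difference was -2.14 ± 0.69, adjusted p = 0.166.

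HPX and AMBP were among the carriers with low levels at day 16 in both breeds. HPX, the heme carrier hemopexin (chromosome 15, 46013968 to 46023453), was at 105, 103 and 109 FPKM in Hulunbuir day 25 embryos and 25.05, 18.8 and 17.4 FPKM in Ujumqin day 25 embryos. At day 16 HPX was at 0.769, 0.754 and 0.702 FPKM in Hulunbuir day 16 embryos and 0.724, 1.35 and 9.16 FPKM in Ujumqin day 16 embryos. All day 25 libraries lay above all day 16 libraries, and Ujumqin replicate 3 stood above the other day 16 libraries. HPX rose with age in Hulunbuir (6.96 ± 0.83, adjusted p = 1.40e-04) and in Ujumqin (2.62 ± 0.67, adjusted p = 0.00549), and by 4.37 in Ujumqin without that replicate. The breed difference at day 25 was 2.05 ± 0.11, adjusted p = 8.37e-06.

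AMBP encodes a precursor that is cleaved into the lipocalin alpha-1-microglobulin and bikunin, the light chain of the inter-alpha-trypsin inhibitors (chromosome 2, 9583152 to 9609521). It was at 625, 681 and 638 FPKM in Hulunbuir day 25 embryos and 121, 80.4 and 79.9 FPKM in Ujumqin day 25 embryos. At day 16 AMBP was at 2.16, 3.84 and 0.843 FPKM in Hulunbuir day 16 embryos and 9.44, 8.503 and 46.1 FPKM in Ujumqin day 16 embryos. The lowest day 25 library was above the highest day 16 library in each breed, and Ujumqin replicate 3 again led the day 16 libraries. AMBP rose with age in Hulunbuir (7.91 ± 0.85, adjusted p = 7.96e-05; 8.66 without day 16 replicate 2) and in Ujumqin (2.31 ± 0.65, adjusted p = 0.00938; 3.47 without day 16 replicate 3). It was higher in Hulunbuir at day 25 (2.47 ± 0.14, adjusted p = 1.05e-05), and the day 16 difference was -3.18 ± 0.87, adjusted p = 0.139.

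GC, the vitamin D carrier, was at 7.41, 8.14 and 9.64 FPKM in Hulunbuir day 25 embryos and 1.15, 0.261 and 1.07 FPKM in Ujumqin day 25 embryos. At day 16 GC was at 0.857, 0.0001 and 0.196 FPKM in Hulunbuir day 16 embryos and 0.204, 0.0918 and 0.148 FPKM in Ujumqin day 16 embryos. Most day 16 values were close to 0, and Hulunbuir replicate 1 was the highest of them. GC was higher in Hulunbuir at day 25 (2.99 ± 0.40, adjusted p = 6.17e-04) and rose with age in Hulunbuir (4.40 ± 1.02, adjusted p = 0.00580; 6.25 without day 16 replicate 1). The rise in Ujumqin (2.56 ± 0.99, adjusted p = 0.0406) lost its call without day 25 replicate 1 or 3 or any day 16 replicate of that breed (adjusted p 0.0685 to 0.106), and in voom (adjusted p = 0.131), without the filter (adjusted p = 0.0506) or with limma on log2(FPKM + 1) (adjusted p = 0.0559).

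**Figure D4:**
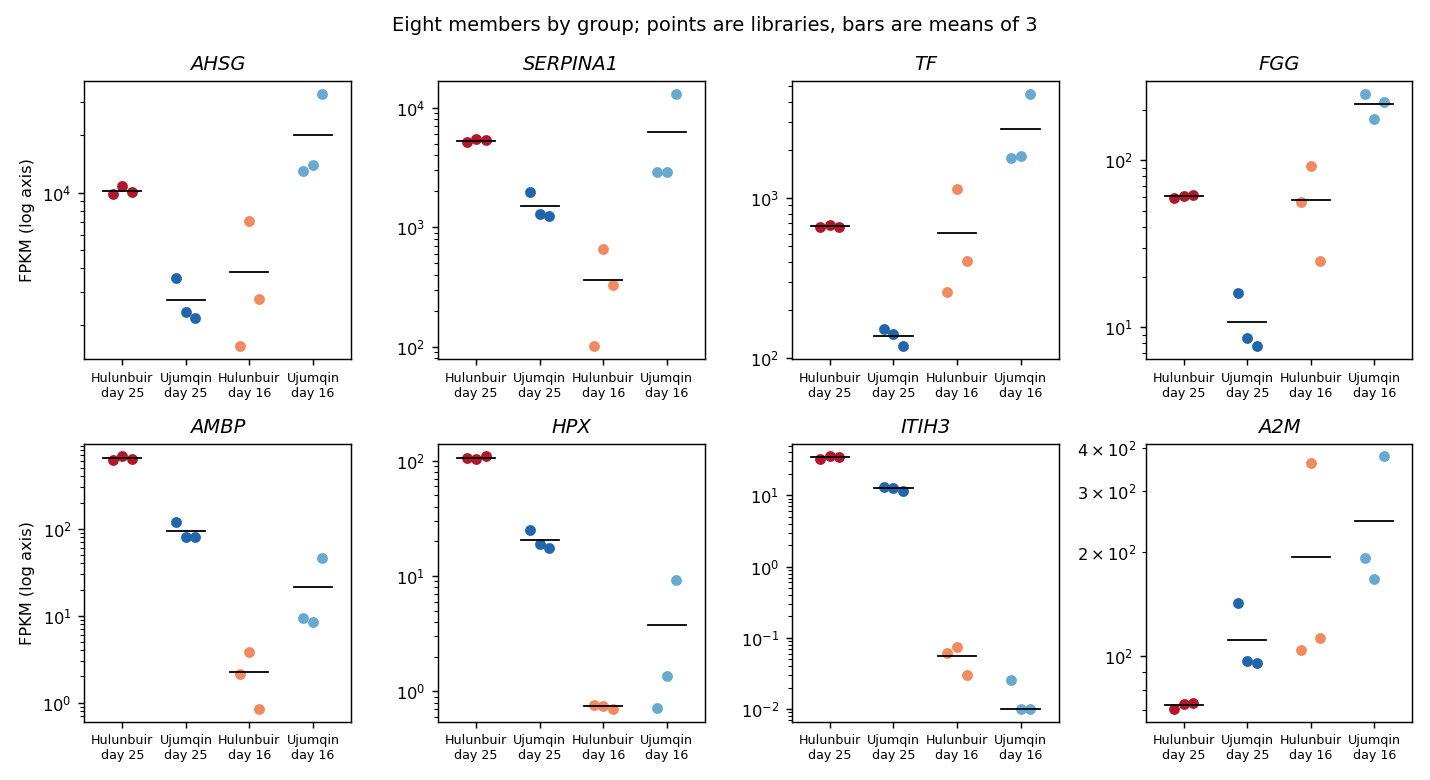
FPKM of 8 members on log axes in Hulunbuir day 25, Ujumqin day 25, Hulunbuir day 16 and Ujumqin day 16; points are libraries, bars are means of 3, and points at 0.01 for ITIH3 stand for a count of 0. AHSG, SERPINA1, TF and FGG are lowest in Ujumqin at day 25 or in Hulunbuir at day 16, while AMBP, HPX and ITIH3 have all day 25 libraries above all day 16 libraries.

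The cystatin-domain proteins AHSG, FETUB, HRG and KNG1 lie in a row on the minus strand of chromosome 1 (198707648 to 198813239), and all 4 were higher in Hulunbuir at day 25 and lower at day 25 than at day 16 in Ujumqin. AHSG, fetuin-A, a carrier of calcium phosphate, was at 9838, 10773 and 10136 FPKM in Hulunbuir day 25 embryos and 3575, 2367 and 2183 FPKM in Ujumqin day 25 embryos. At day 16 AHSG was at 1552, 7086 and 2767 FPKM in Hulunbuir day 16 embryos and 12963, 13954 and 33166 FPKM in Ujumqin day 16 embryos. It was the most abundant member in every group by mean, and Ujumqin day 16 replicate 3 stood well above the other libraries of its group. The breed difference was 1.60 ± 0.15, adjusted p = 1.13e-04 at day 25 and -2.38 ± 0.69, adjusted p = 0.149 at day 16. AHSG fell with age in Ujumqin (-2.74 ± 0.56, adjusted p = 0.00146) and was not called in Hulunbuir (1.19 ± 0.54, adjusted p = 0.0978), although all 3 day 25 libraries lay above the day 16 libraries there.

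FETUB, fetuin-B, which in mice inhibits the egg protease ovastacin, was at 683, 727 and 682 FPKM in Hulunbuir day 25 embryos and 500.1, 359 and 336 FPKM in Ujumqin day 25 embryos. At day 16 FETUB was at 202, 457 and 169.9 FPKM in Hulunbuir day 16 embryos and 2519, 1722 and 2176 FPKM in Ujumqin day 16 embryos. Breeds did not overlap at either age, and Ujumqin day 16 libraries were the highest. The breed difference at day 25 was the smallest among the higher members (0.49 ± 0.12, adjusted p = 0.0103), and at day 16 it was -2.96 ± 0.50, adjusted p = 0.1004. FETUB fell with age in Ujumqin (-2.29 ± 0.39, adjusted p = 4.15e-04). Its rise in Hulunbuir (1.10 ± 0.38, adjusted p = 0.03697) lost its call without any one of the 3 day 25 libraries or without day 16 replicate 1 or 3 of that breed (adjusted p 0.0739 to 0.116) and on the 6 libraries of the breed (adjusted p = 0.0719), and was larger without day 16 replicate 2 (1.85).

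KNG1, the kininogen that releases bradykinin, was at 18.5, 18.3 and 16.5 FPKM in Hulunbuir day 25 embryos and 2.31, 2.51 and 2.31 FPKM in Ujumqin day 25 embryos. At day 16 KNG1 was at 11.4, 21.04 and 9.62 FPKM in Hulunbuir day 16 embryos and 31.5, 29.6 and 49.5 FPKM in Ujumqin day 16 embryos. The day 25 libraries of Ujumqin were the lowest of all 12, and the other 3 groups lay well above them. KNG1 was higher in Hulunbuir at day 25 (2.57 ± 0.12, adjusted p = 3.48e-06) and fell with age in Ujumqin (-3.80 ± 0.36, adjusted p = 9.18e-06), with 0.12 ± 0.32, adjusted p = 0.787 in Hulunbuir. HRG, histidine-rich glycoprotein, a heparin- and plasminogen-binding protein, was low, at 2.99, 2.18 and 2.08 FPKM in Hulunbuir day 25 embryos and 0.922, 0.287 and 0.387 FPKM in Ujumqin day 25 embryos. At day 16 HRG was at 0.298, 0.412 and 0.362 FPKM in Hulunbuir day 16 embryos and 3.89, 1.93 and 2.86 FPKM in Ujumqin day 16 embryos. HRG libraries of Hulunbuir day 16 and Ujumqin day 25 were both under 1 FPKM. HRG rose with age in Hulunbuir (2.56 ± 0.46, adjusted p = 0.00141) and fell in Ujumqin (-2.29 ± 0.45, adjusted p = 0.00111; -2.88 without day 25 replicate 1). KNG1 and HRG were 2 of the 4 members with the smallest p for the breed difference in age change (KNG1 3.92 ± 0.47, adjusted p = 8.67e-04, and 4.53 without Hulunbuir day 16 replicate 2; HRG 4.84 ± 0.64, adjusted p = 0.00126, and 5.46 without Ujumqin day 25 replicate 1).

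Among the protease inhibitors, the 4 serpins were all higher in Hulunbuir at day 25. SERPINA1, alpha-1-antitrypsin, the inhibitor of neutrophil elastase, was at 5167, 5419 and 5306 FPKM in Hulunbuir day 25 embryos and 1982, 1287 and 1239 FPKM in Ujumqin day 25 embryos. At day 16 SERPINA1 was at 101, 661 and 328 FPKM in Hulunbuir day 16 embryos and 2898, 2889.7 and 13068 FPKM in Ujumqin day 16 embryos. Hulunbuir libraries were higher at day 25 and lower at day 16 without overlap, and Ujumqin day 16 replicate 3 stood far above its group. The breed difference was 1.50 ± 0.15, adjusted p = 1.31e-04 at day 25 and -4.09 ± 0.93, adjusted p = 0.122 at day 16. SERPINA1 rose with age in Hulunbuir (3.63 ± 0.73, adjusted p = 0.00281; 4.62 without day 16 replicate 2). Its fall in Ujumqin (-1.90 ± 0.68, adjusted p = 0.0298) lost its call without day 16 replicate 3 (-0.86, adjusted p = 0.212), without day 25 replicate 2 (adjusted p = 0.0794) and without day 25 replicate 3 (adjusted p = 0.0821), and with the replicate block (-1.69, adjusted p = 0.0646).

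SERPINC1, antithrombin, was at 92.8, 99.1 and 96.5 FPKM in Hulunbuir day 25 embryos and 18.4, 14.1 and 10.7 FPKM in Ujumqin day 25 embryos. At day 16 SERPINC1 was at 12.4, 31.2 and 12.3 FPKM in Hulunbuir day 16 embryos and 64.8, 65.1 and 173 FPKM in Ujumqin day 16 embryos. Breeds were separate at both ages, in opposite order. SERPINC1 was higher in Hulunbuir at day 25 (2.42 ± 0.15, adjusted p = 1.67e-05), rose with age in Hulunbuir (2.13 ± 0.47, adjusted p = 0.00465; 2.90 without day 16 replicate 2) and fell in Ujumqin (-2.65 ± 0.48, adjusted p = 6.47e-04). SERPINF2, alpha-2-antiplasmin, which blocks plasmin (chromosome 11, 22453045 to 22458842), was at 54.6, 58.5 and 53.4 FPKM in Hulunbuir day 25 embryos and 7.18, 4.05 and 3.81 FPKM in Ujumqin day 25 embryos. At day 16 SERPINF2 was at 46.8, 75.6 and 28.9 FPKM in Hulunbuir day 16 embryos and 116, 82.3 and 210.0 FPKM in Ujumqin day 16 embryos. Ujumqin day 25 libraries were the lowest of all and Hulunbuir values overlapped between the ages. SERPINF2 had the second largest breed difference at day 25 among all members (3.15 ± 0.20, adjusted p = 1.78e-05) and the largest fall with age in Ujumqin (-4.61 ± 0.48, adjusted p = 1.54e-05), with -0.09 ± 0.41, adjusted p = 0.884 in Hulunbuir. SERPIND1, heparin cofactor II, which lies on the plus strand within PI4KA on the minus strand, was at 24.4 ± 1.09 FPKM in Hulunbuir and 6.52 ± 0.546 FPKM in Ujumqin at day 25, and at 0.341 ± 0.439 FPKM in Hulunbuir and 4.86 ± 4.02 FPKM in Ujumqin at day 16 (mean ± SD, n = 3). It was higher in Hulunbuir at day 25 (1.57 ± 0.12, adjusted p = 4.64e-05), and its reads cannot be separated from those of PI4KA where strand was not used. A listed gene without a symbol, also on the plus strand, shares 4131 bases with SERPIND1 and averaged 6.16 FPKM. Strand would not separate the reads of that pair.

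A2M, alpha-2-macroglobulin, which traps proteases of many kinds, ran against the other inhibitors. It was at 70.2, 72.8 and 72.96 FPKM in Hulunbuir day 25 embryos and 142, 96.8 and 95.4 FPKM in Ujumqin day 25 embryos. At day 16 A2M was at 104, 363 and 113 FPKM in Hulunbuir day 16 embryos and 193, 168 and 379 FPKM in Ujumqin day 16 embryos. The Hulunbuir day 25 libraries were the lowest of the 12, and Hulunbuir day 16 replicate 2 stood more than 3 times above the others of its group. A2M was lower in Hulunbuir at day 25 (-0.95 ± 0.13, adjusted p = 5.67e-04). Its fall with age in Hulunbuir (-1.68 ± 0.50, adjusted p = 0.0198) rested on that replicate: without it the log2 change was -0.64 (adjusted p = 0.0893), and without any one day 25 library of that breed adjusted p was 0.0589 to 0.0618.

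The genes named for heavy chains of the inter-alpha-trypsin inhibitors fell into distinct patterns. The chains of ITIH1, ITIH2 and ITIH3 join bikunin and bind hyaluronan. ITIH1, ITIH3 and ITIH4 are neighbours on chromosome 19 (48037537 to 48091789), and ITIH2 lies on chromosome 13. ITIH3 was at 32.3, 35.3 and 34.7 FPKM in Hulunbuir day 25 embryos and 13.1, 12.8 and 11.6 FPKM in Ujumqin day 25 embryos. At day 16 ITIH3 was at 0.0617, 0.07403 and 0.0304 FPKM in Hulunbuir day 16 embryos and 0.0256, 0.0001 and 0.0001 FPKM in Ujumqin day 16 embryos. The gene was well detected in all day 25 libraries and close to 0 in all day 16 libraries of both breeds. ITIH3 rose with age in Hulunbuir (8.93 ± 0.49, adjusted p = 3.49e-06) and in Ujumqin (10.46 ± 0.57, adjusted p = 6.95e-07; 13.74 without day 16 replicate 1 and 9.85 without replicate 3), and it was higher in Hulunbuir at day 25 (1.12 ± 0.08, adjusted p = 3.00e-05). ITIH3 and ITIH4 share 165 bases on opposite strands.

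ITIH1 was at 2.47, 2.38 and 2.36 FPKM in Hulunbuir day 25 embryos and 0.602, 0.642 and 0.769 FPKM in Ujumqin day 25 embryos. Its counts summed to 4 over the 3 Hulunbuir day 16 libraries and to 0 over the 3 Ujumqin day 16 libraries. Against a floor of 3 counts over the group, ITIH1 was at least 203-fold higher at day 25 than at day 16 in Ujumqin. ITIH1 rose with age in Hulunbuir (8.60 ± 0.78, adjusted p = 7.96e-05; 11.94 without day 16 replicate 3). ITIH2 was at 47.6, 47.5 and 45.5 FPKM in Hulunbuir day 25 embryos and 8.93, 6.02 and 7.64 FPKM in Ujumqin day 25 embryos. At day 16 ITIH2 was at 1.48, 0.506 and 1.39 FPKM in Hulunbuir day 16 embryos and 1.58, 1.13 and 10.2 FPKM in Ujumqin day 16 embryos. Ujumqin day 16 replicate 3 lay above the Ujumqin day 25 libraries, and ITIH2 rose with age in Hulunbuir (5.25 ± 0.75, adjusted p = 3.74e-04) but was not called in Ujumqin (0.996 ± 0.63, adjusted p = 0.188). ITIH4, cleaved by plasma kallikrein, was at 14.4 ± 0.137 FPKM in Hulunbuir and 6.33 ± 0.08396 FPKM in Ujumqin at day 25, and at 6.37 ± 3.86 FPKM in Hulunbuir and 10.9 ± 4.47 FPKM in Ujumqin at day 16 (mean ± SD, n = 3). It was called only between breeds at day 25 among the 5 comparisons (0.86 ± 0.07, adjusted p = 7.27e-05). The ratio of ITIH2 to AMBP was 0.0698 to 0.0762 in Hulunbuir day 25 libraries and 0.0738 to 0.0957 in Ujumqin day 25 libraries. At day 16 this ratio was 0.132 to 1.65 in Hulunbuir and 0.133 to 0.220 in Ujumqin.

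**Figure D5:**
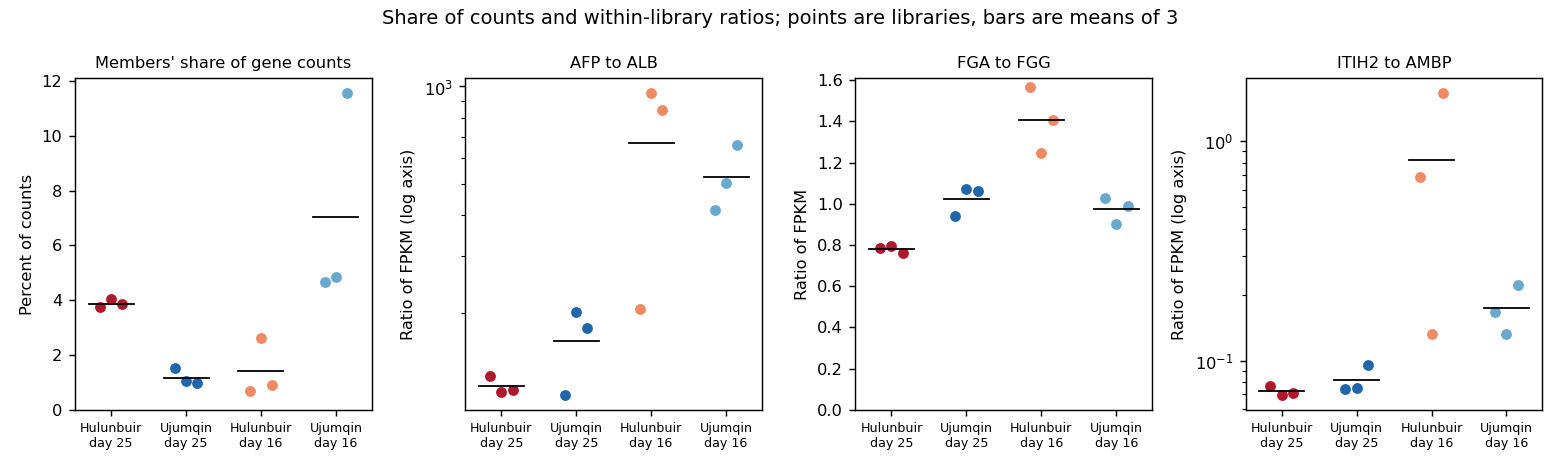
Share of all gene counts held by the 37 members (percent) and the FPKM ratios AFP to ALB, FGA to FGG and ITIH2 to AMBP, per library in Hulunbuir day 25, Ujumqin day 25, Hulunbuir day 16 and Ujumqin day 16; bars are means of 3. The share is 3.74% to 4.03% in Hulunbuir and 0.975% to 1.52% in Ujumqin at day 25, and FGA to FGG stays between 0.759 and 1.57 in all libraries.

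In the coagulation class, the 3 fibrinogen chain genes, which make the clot protein and neighbour each other on chromosome 17 (2657181 to 2715375), each had their highest mean in Ujumqin at day 16 and their lowest in Ujumqin at day 25. FGG, the gamma chain, was at 59.8, 61.2 and 62.1 FPKM in Hulunbuir day 25 embryos and 16.1, 8.66 and 7.67 FPKM in Ujumqin day 25 embryos. At day 16 FGG was at 56.3, 92.8 and 24.9 FPKM in Hulunbuir day 16 embryos and 251, 178 and 222 FPKM in Ujumqin day 16 embryos. FGA, the alpha chain, was at 46.9, 48.5 and 47.1 FPKM in Hulunbuir day 25 embryos and 15.1, 9.26 and 8.15 FPKM in Ujumqin day 25 embryos. At day 16 FGA was at 88.3, 115 and 35.05 FPKM in Hulunbuir day 16 embryos and 258, 160.4 and 220.0 FPKM in Ujumqin day 16 embryos. For both chains Ujumqin day 16 libraries were the highest and Ujumqin day 25 libraries the lowest, and Hulunbuir values overlapped between the ages. Between breeds at day 25, FGG (2.19 ± 0.22, adjusted p = 1.60e-04), FGA (1.82 ± 0.18, adjusted p = 1.41e-04) and FGB, the beta chain (1.59 ± 0.29, adjusted p = 0.00261), were higher in Hulunbuir. With age in Ujumqin, FGG (-4.20 ± 0.50, adjusted p = 3.52e-05), FGA (-4.17 ± 0.46, adjusted p = 2.34e-05) and FGB (-3.80 ± 0.57, adjusted p = 1.82e-04) fell. With age in Hulunbuir no chain was called, at -0.17 ± 0.44, -0.97 ± 0.41 and -0.07 ± 0.51 for FGG, FGA and FGB. The ratio of FGA to FGG was 0.759 to 0.793 in Hulunbuir day 25, 0.940 to 1.07 in Ujumqin day 25, 1.24 to 1.57 in Hulunbuir day 16 and 0.903 to 1.03 in Ujumqin day 16. FGB in Hulunbuir day 25 was at 39.9, 79.2 and 84.8 FPKM, replicate 1 lying below replicates 2 and 3.

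F2, prothrombin, was at 55.5, 61.8 and 56.5 FPKM in Hulunbuir day 25 embryos and 19.8, 15.2 and 13.6 FPKM in Ujumqin day 25 embryos. At day 16 F2 was at 7.62, 23.8 and 9.36 FPKM in Hulunbuir day 16 embryos and 27.9, 29.5 and 78.2 FPKM in Ujumqin day 16 embryos. Breeds were separate at both ages, Hulunbuir being higher at day 25 (1.52 ± 0.11, adjusted p = 3.97e-05). F2 rose with age in Hulunbuir (1.85 ± 0.49, adjusted p = 0.0116; 2.73 without day 16 replicate 2), and its fall in Ujumqin (-1.32 ± 0.48, adjusted p = 0.0321) lost its call without day 16 replicate 3 (-0.73, adjusted p = 0.170), without day 25 replicate 2 (adjusted p = 0.0736) and without day 25 replicate 3 (adjusted p = 0.0846). F13B, the carrier subunit of the fibrin-crosslinking factor XIII, was at 6.18, 7.16 and 7.21 FPKM in Hulunbuir day 25 embryos and 1.95, 0.443 and 0.4904 FPKM in Ujumqin day 25 embryos. Its counts summed to 0 over the Hulunbuir day 16 libraries and to 54 over the Ujumqin day 16 libraries (8, 4 and 42 in replicates 1, 2 and 3). Against a floor of 3 counts over the group, F13B was at least 688-fold higher at day 25 than at day 16 in Hulunbuir. With the same floor, the pooled counts put it at least 16.0-fold lower in Hulunbuir than in Ujumqin at day 16. That day 16 bound rests largely on Ujumqin replicate 3 and does not cover the spread between libraries. The rise in Ujumqin (2.74 ± 0.80, adjusted p = 0.01397) lost its call without day 25 replicate 1 (1.74, adjusted p = 0.0731) or day 16 replicate 1 (adjusted p = 0.0521), and was 4.14 without day 16 replicate 3. At day 25, F13B was higher in Hulunbuir (2.52 ± 0.47, adjusted p = 0.00283; 3.48 without Ujumqin replicate 1).

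The vitamin K-dependent members F9, F10 and PROC were low or moderate. F9, the hemophilia B factor, was at 1.57, 1.82 and 1.94 FPKM in Hulunbuir day 25 embryos and 0.103, 0.0001 and 0.0001 FPKM in Ujumqin day 25 embryos. At day 16 F9 was at 0.0001, 0.0659 and 0.0001 FPKM in Hulunbuir day 16 embryos and 0.0677, 0.135 and 1.34 FPKM in Ujumqin day 16 embryos. Hulunbuir day 25 libraries and Ujumqin day 16 replicate 3 were the only libraries above 1 FPKM. F9 was higher in Hulunbuir at day 25 (5.23 ± 0.80, adjusted p = 0.00111; 9.98 without Ujumqin replicate 1, which leaves that group with no count). PROC, the anticoagulant protein C, was at 26.8 ± 0.634 FPKM in Hulunbuir and 13.1 ± 0.398 FPKM in Ujumqin at day 25, and at 1.83 ± 0.9499 FPKM in Hulunbuir and 6.51 ± 5.37 FPKM in Ujumqin at day 16 (mean ± SD, n = 3). It was higher in Hulunbuir at day 25 (0.71 ± 0.08, adjusted p = 2.07e-04) and rose with age in Hulunbuir (3.66 ± 0.54, adjusted p = 4.61e-04; 4.34 without day 16 replicate 2). F10, the factor that cleaves prothrombin, was higher in Hulunbuir at day 25 (0.85 ± 0.22, adjusted p = 0.0123), a call lost without Hulunbuir replicate 3 (adjusted p = 0.0548), and rose with age in Hulunbuir (2.78 ± 0.55, adjusted p = 0.00244; 3.79 without day 16 replicate 2).

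The gene listed as F5, coagulation factor V, ran against the rest of its class. It was at 4.03, 3.98 and 4.71 FPKM in Hulunbuir day 25 embryos and 25.8, 10.5 and 11.4 FPKM in Ujumqin day 25 embryos. At day 16 F5 was at 2.996, 8.67 and 2.21 FPKM in Hulunbuir day 16 embryos and 30.5, 29.4 and 7.55 FPKM in Ujumqin day 16 embryos. The Hulunbuir day 25 libraries lay below those of Ujumqin (-2.21 ± 0.29, adjusted p = 5.56e-04), and at day 16 Ujumqin replicate 3 lay far below replicates 1 and 2. The table's description and NCBI number for this entry are those of the neighbouring thiamine transporter gene SLC19A2, so which gene its counts stand for is uncertain. C5, the only complement member listed under its symbol and the source of the anaphylatoxin C5a, was at 1.51, 1.17 and 1.02 FPKM in Hulunbuir day 25 embryos and 0.615, 0.175 and 0.2001 FPKM in Ujumqin day 25 embryos. At day 16 C5 was at 1.21, 3.796 and 0.405 FPKM in Hulunbuir day 16 embryos and 0.102, 0.65003 and 1.78 FPKM in Ujumqin day 16 embryos. It was higher in Hulunbuir at day 25 (1.59 ± 0.43, adjusted p = 0.0161), a call lost without Hulunbuir replicate 1 (adjusted p = 0.0609) or Ujumqin replicate 3 (adjusted p = 0.0515) and in voom (adjusted p = 0.0518), and its log2 change was 2.34 without Ujumqin replicate 1.

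The remaining members are an adhesion protein, a phospholipid-binding protein, a hormone precursor and a serpin without known inhibitor activity. VTN, the adhesive protein vitronectin, was at 38.6, 40.1 and 39.5 FPKM in Hulunbuir day 25 embryos and 5.496, 4.63 and 2.99 FPKM in Ujumqin day 25 embryos. At day 16 VTN was at 0.301, 0.712 and 0.189 FPKM in Hulunbuir day 16 embryos and 1.43, 1.42 and 6.095 FPKM in Ujumqin day 16 embryos. Hulunbuir day 25 libraries were more than 6 times those of any other group. VTN was higher in Hulunbuir at day 25 (2.85 ± 0.18, adjusted p = 1.67e-05) and rose with age in Hulunbuir (6.39 ± 0.72, adjusted p = 9.99e-05; 7.22 without day 16 replicate 2) but was not called in Ujumqin (0.72 ± 0.57, adjusted p = 0.282). APOH, beta-2-glycoprotein I, was at 182, 211 and 193 FPKM in Hulunbuir day 25 embryos and 45.4, 24.5 and 24.7 FPKM in Ujumqin day 25 embryos. At day 16 APOH was at 2.72, 13.6 and 8.25 FPKM in Hulunbuir day 16 embryos and 61.7, 49.2 and 345 FPKM in Ujumqin day 16 embryos. APOH had the lowest log2 change at day 16 among members with at least 5 FPKM in the higher group (-4.20 ± 0.97, adjusted p = 0.123). It was higher in Hulunbuir at day 25 (2.32 ± 0.20, adjusted p = 8.64e-05) and rose with age in Hulunbuir (4.36 ± 0.79, adjusted p = 0.00154; 5.15 without day 16 replicate 2). The fall of APOH in Ujumqin (-2.10 ± 0.72, adjusted p = 0.0236) lost its call without day 16 replicate 3 (-0.73, adjusted p = 0.233), without day 25 replicate 2 (adjusted p = 0.0714) and without day 25 replicate 3 (adjusted p = 0.0711), and with the replicate block (-1.79, adjusted p = 0.0660).

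AGT, angiotensinogen, the source of the angiotensins, was at 14.8, 17.3 and 16.3 FPKM in Hulunbuir day 25 embryos and 2.18, 1.38 and 1.17 FPKM in Ujumqin day 25 embryos. At day 16 AGT was at 0.385, 0.512 and 0.627 FPKM in Hulunbuir day 16 embryos and 0.402, 0.174 and 1.83 FPKM in Ujumqin day 16 embryos. All day 16 values were under 2 FPKM, and Hulunbuir day 25 libraries were well above all others. AGT was higher in Hulunbuir at day 25 (3.03 ± 0.21, adjusted p = 2.59e-05) and rose with age in Hulunbuir (4.82 ± 0.69, adjusted p = 3.69e-04). SERPINF1, which encodes the pigment epithelium-derived factor and is also made by connective tissue cells, lies next to SERPINF2 on chromosome 11. It was at 133, 132 and 129 FPKM in Hulunbuir day 25 embryos and 159, 133 and 119 FPKM in Ujumqin day 25 embryos. At day 16 SERPINF1 was at 20.1, 11.7 and 25.5 FPKM in Hulunbuir day 16 embryos and 18.8, 15.4 and 69.6 FPKM in Ujumqin day 16 embryos. The breeds overlapped at day 25, and both breeds were higher at day 25 than at day 16. SERPINF1 rose with age in Hulunbuir (2.66 ± 0.46, adjusted p = 0.00109) and in Ujumqin (2.16 ± 0.45, adjusted p = 0.00152; 3.102 without day 16 replicate 3). It was called lower in Hulunbuir at day 25 on TMM-scaled counts (-0.38 ± 0.09, adjusted p = 0.00809), but not on log2(FPKM + 1) (-0.05, adjusted p = 0.720 with limma).

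The 5 plasma protein genes without a symbol in the table were all tested. ORM1, the acute-phase carrier orosomucoid, was at 2526, 2715 and 2595 FPKM in Hulunbuir day 25 embryos and 1787, 1157 and 1112 FPKM in Ujumqin day 25 embryos. At day 16 ORM1 was at 269.9, 1741 and 580.3 FPKM in Hulunbuir day 16 embryos and 5111, 5924 and 14154 FPKM in Ujumqin day 16 embryos. Its Hulunbuir libraries lay above those of Ujumqin at day 25 and below them at day 16. ORM1 was higher in Hulunbuir at day 25 (0.63 ± 0.14, adjusted p = 0.00769; not called in voom, adjusted p = 0.0620) and lower at day 25 than at day 16 in Ujumqin (-2.48 ± 0.63, adjusted p = 0.00500). PLG, plasminogen, was at 60.7, 65.998 and 62.8 FPKM in Hulunbuir day 25 embryos and 7.73, 7.28 and 5.74 FPKM in Ujumqin day 25 embryos. At day 16 PLG was at 34.9, 113 and 31.96 FPKM in Hulunbuir day 16 embryos and 92.3, 83.6 and 233 FPKM in Ujumqin day 16 embryos. PLG was lowest in Ujumqin day 25 libraries, with a breed difference of 2.87 ± 0.11, adjusted p = 1.24e-06 at day 25 and a fall with age in Ujumqin (-4.14 ± 0.59, adjusted p = 1.18e-04). F7, the factor that starts clotting with tissue factor, was higher in Hulunbuir at day 25 (1.86 ± 0.31, adjusted p = 0.00156). The complement genes differed from these: C3, the central complement protein, was lower in Hulunbuir at day 25 (-0.70 ± 0.15, adjusted p = 0.00546; not called on log2(FPKM + 1) with limma, adjusted p = 0.0991) and rose with age in Ujumqin (1.27 ± 0.27, adjusted p = 0.00182). CFB, complement factor B, was not called between breeds at day 25 (-0.27 ± 0.20, adjusted p = 0.308) and fell with age in Hulunbuir (-1.89 ± 0.50, adjusted p = 0.0114); without day 16 replicate 1 the log2 change was -0.91 (adjusted p = 0.0401), and with limma on log2(FPKM + 1) it was not called (adjusted p = 0.0618).

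Other plasma protein genes, none of them members, were counted from lists, to be read against 23.3% of all genes tested called higher and 22.7% called lower in Hulunbuir at day 25. Of 14 tested other plasma proteins, 8 were higher and 3 lower in Hulunbuir at day 25. LECT2, a hepatokine, was at 90.95 ± 5.95 FPKM in Hulunbuir and 14.997 ± 3.26 FPKM in Ujumqin at day 25 (mean ± SD, n = 3), a log2 change of 2.28 ± 0.14, adjusted p = 1.52e-05. Of 10 apolipoproteins, 6 were higher and 1 lower in Hulunbuir at day 25, and 0 were higher and 8 lower at day 25 than at day 16 in Ujumqin, against 30.7% and 32.9% of all genes tested. APOA2, of high-density lipoprotein, was higher in Hulunbuir at day 25 (1.21 ± 0.19, adjusted p = 0.00124), and APOE was lower (-0.40 ± 0.09, adjusted p = 0.00622). Of 20 other coagulation and fibrinolysis genes, 6 were higher and 10 lower in Hulunbuir at day 25, with a median log2 change of -0.47. Most of this list thus ran against the members. The carboxypeptidase CPB2 was among the fewer that were higher (3.40 ± 0.24, adjusted p = 3.34e-05). Of 14 other complement genes, 5 were higher and 2 lower in Hulunbuir at day 25.

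Genes of hepatocytes and of the yolk sac were counted in the same way, against 23.3% of all genes tested called higher and 22.7% called lower in Hulunbuir at day 25. Of 17 hepatocyte metabolic genes tested, 16 were higher and 0 lower in Hulunbuir at day 25, with a median log2 change of 2.49. Their summed level was 737 to 796 FPKM in Hulunbuir day 25 libraries and 135 to 194 FPKM in Ujumqin day 25 libraries, and 100.5 to 178 FPKM in Hulunbuir and 384 to 486 FPKM in Ujumqin at day 16. G6PC, PCK1 and CYP7A1 of that list had no count in any of the 12 libraries, while CPS1, OTC, ARG1 and FABP1 were among the 17 tested. Why those rows had no count was not tested, and they give no stage of the liver. FABP1, the liver fatty acid-binding protein, was at 378 ± 16.3 FPKM in Hulunbuir and 48.8 ± 6.16 FPKM in Ujumqin at day 25 (mean ± SD, n = 3; log2 change 2.63 ± 0.09, adjusted p = 9.94e-07). With age, 12 of the 17 were higher and 0 lower in Hulunbuir, against 18.9% and 21.6% of all genes tested, and 4 were higher and 9 lower in Ujumqin, against 30.7% and 32.9%; the difference between breeds in age change was called for 13, all positive. Of 16 liver transcription factor genes, 7 were higher in Hulunbuir at day 25 and 2 lower, with HNF4A (2.65 ± 0.20, adjusted p = 4.09e-05) and FOXA3 (3.23 ± 0.40, adjusted p = 4.36e-04) among the higher. HNF4A fell with age in Hulunbuir (-2.18 ± 0.43, adjusted p = 0.00253) and in Ujumqin (-5.95 ± 0.52, adjusted p = 6.18e-06). Of 15 visceral endoderm and yolk sac genes other than TTR, 1 was higher and 8 lower at day 25 than at day 16 in Hulunbuir, and 0 were higher and 12 lower in Ujumqin, the endocytic receptor gene LRP2 falling in both (-3.71 ± 0.50, adjusted p = 2.67e-04 in Hulunbuir; -5.38 ± 0.54, adjusted p = 1.29e-05 in Ujumqin). Their summed level was 274 to 302 FPKM in Hulunbuir day 25, 228 to 256 FPKM in Ujumqin day 25, 315 to 519 FPKM in Hulunbuir day 16 and 685 to 1369 FPKM in Ujumqin day 16.

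Markers of other cell types were also counted, to be set beside the same shares over all genes tested, 23.3% higher and 22.7% lower in Hulunbuir at day 25. Of 14 erythroid genes, 13 were higher and 0 lower in Hulunbuir at day 25, their summed level being 16549 to 19492 FPKM in Hulunbuir and 2014 to 2533 FPKM in Ujumqin. At day 16 that sum was 89.7 to 181 FPKM in Hulunbuir and 958 to 4279 FPKM in Ujumqin. Of 15 mesenchyme genes, 3 were higher and 10 lower in Hulunbuir at day 25 (summed 5655 to 5797 FPKM in Hulunbuir and 10789 to 18219 FPKM in Ujumqin). Of 16 trophoblast genes, 2 were higher and 7 lower in Hulunbuir at day 25, and 0 were higher and 11 lower at day 25 than at day 16 in Ujumqin, against 30.7% and 32.9% of all genes tested. Trophoblast sums were 219 to 233 FPKM in Hulunbuir and 164 to 243 FPKM in Ujumqin at day 25, and 854 to 1682 FPKM in Hulunbuir and 1150 to 1564 FPKM in Ujumqin at day 16. PAG4, a pregnancy-associated glycoprotein of the trophoblast, was named here after its values were seen. It was at 0.0772, 0.377 and 0.00841 FPKM in Hulunbuir day 16 embryos and 27.7, 102 and 0.0256 FPKM in Ujumqin day 16 embryos. The trophoblast sum in those Ujumqin libraries was 1533, 1564 and 1150 FPKM, so the list did not follow PAG4 in replicate 3. Of 10 heart genes, 6 lay above without overlap in Hulunbuir at day 16, and 0 lay below, against 13.6% and 10.8% of all genes tested, with sums of 949 to 2064 FPKM in Hulunbuir and 182 to 436 FPKM in Ujumqin. Of 9 uterine endometrium genes, 2 were higher and 5 lower in Hulunbuir at day 25. The uterine list summed to 532 to 576 FPKM in Hulunbuir and 535 to 745 FPKM in Ujumqin at day 25. At day 16 it summed to 281 to 394 FPKM in Hulunbuir and 509 to 2399 FPKM in Ujumqin. PAEP and PGR of that list had no count in any library, and why was not tested. Of 12 leukocyte genes, 5 were higher and 2 lower in Hulunbuir at day 25, of 14 endothelium genes 5 and 2, of 9 neural genes 4 and 1, of 8 definitive endoderm, gut and pancreas genes 4 and 0, and of 10 heart genes 4 and 1. The part of the marker shifts in the members' differences was not tested.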

How the data were processed

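Bulk RNA-seq of 12 sheep embryo libraries was analysed from 1 deposited table of counts and FPKM. TRIzol extraction of total RNA and Illumina library preparation are given per the labels' protocols; per the submitters' processing notes, cutadapt 1.9, FastQC and the genome build Oar_v3.1 were used. How reads were aligned and counted, and whether strand was used, is not given in the sources used here. The deposited count columns hold whole numbers per gene, unscaled, and the deposited FPKM values were scaled by gene length and library size by the authors, per the file headers. All 12 libraries were matched to columns by name. Coordinates are those of the table. NCBI gene numbers were looked up in a RefSeq gene table (ARS-UI_Ramb_v3.0), used for names alone.

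Differences were tested on counts with edgeR 4.0.16 (R 4.3.3; TMM, quasi-likelihood F test, Benjamini-Hochberg over 14595 genes). Breed differences were fitted on the 6 libraries of an age, because the spread differed between ages; age changes and their difference between breeds were fitted on all 12 libraries with 4 group means. The filter was 1 FPKM in 3 libraries, and the fit was tested on simulated data. Alternatives were RLE scaling, DESeq2 1.42.0, no filter, voom and limma 3.58.1 on log2(FPKM + 1) or log2(FPKM + 0.1), other libraries in the fit, a replicate block, leaving out each library, and, chosen after seeing the data, adding the 5 genes matched by number.

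Replicate numbers come from the sample titles. Deviations from group means of same-numbered day 16 libraries of both breeds correlated at 0.196, 0.324 and 0.382, so the numbers were taken to pair them. The main fits left this pairing out, and the replicate block was an alternative fit. Same-numbered day 25 libraries correlated at 0.0528, 0.0683 and 0.0405 and were not taken as paired, nor were the ages within a breed. No pair of libraries in a group agreed within sampling noise.

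Members, gene lists and tests were chosen with earlier results of these data known. Per-library values are given for the 8 members with the highest mean, for the 4 largest called rises and falls in each comparison among those averaging 5 FPKM or more in their higher group (at day 16, for those whose breeds did not overlap), for the 4 smallest p of the breed difference in age change, and for called members against the majority in an age comparison; others, among them ALB, FGB, ITIH2, F2, F9, C5, ORM1 and PLG, were added to complete their class. Floors of 3 counts cover counting error only.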

Additional observations from a re-analysis of the deposited data

Results flagged for a closer look

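The age change differed between Hulunbuir and Ujumqin embryos for 25 of the 35 tested members, by edgeR's test of the difference itself (adjusted p under 0.05). Each value here is the log2 change between day 25 and day 16 in Hulunbuir minus that in Ujumqin; it equals the breed difference at day 25 minus that at day 16, so the 2 readings are 1 result. Among the carriers the difference was 4.61 for ALB, 3.98 for AFP, 4.38 for TTR, 4.04 for TF, 4.34 for HPX and 5.60 for AMBP. Among the cystatin-domain proteins it was 3.92 for AHSG, 3.39 for FETUB, 3.92 for KNG1 and 4.84 for HRG. Among the protease inhibitors it was 5.53 for SERPINA1, 4.78 for SERPINC1, 5.30 for SERPIND1, 4.53 for SERPINF2 and 4.26 for ITIH2. Among the coagulation genes it was 3.19 for FGA, 3.73 for FGB, 4.03 for FGG, 3.18 for F2, 9.52 for F9, 9.34 for F13B and 2.48 for PROC. The values of F9 and F13B rest on groups at or near a count of 0, so they are fitted values and no bound. Among the others it was 6.46 for APOH, 5.67 for VTN and 3.69 for AGT.

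The direction stayed positive for each of the 25 in all 19 alternative fits. Without Hulunbuir day 16 replicate 2, 18 of the 25 moved by more than 1.5-fold, and without Ujumqin day 16 replicate 3, 14 did; each was still called. Without the Hulunbuir library all 18 values were larger. They were 5.28 for AFP, 5.36 for TTR, 5.15 for TF and 6.39 for AMBP among the carriers, and 4.996 for AHSG, 4.18 for FETUB and 4.53 for KNG1 among the cystatin-domain proteins. They were 6.56 for SERPINA1, 5.60 for SERPINC1, 7.44 for SERPIND1 and 5.13 for SERPINF2 among the inhibitors, 4.74 for FGG, 4.77 for FGB, 4.09 for F2, 13.86 for F9 and 3.20 for PROC among the coagulation genes, and 7.29 for APOH and 6.55 for VTN. Without the Ujumqin library all 14 values were smaller. They were 3.36 for AFP, 3.77 for TTR, 2.59 for HPX and 4.44 for AMBP, then 4.49 for SERPINA1, 4.47 for SERPIND1 and 2.68 for ITIH2, then 2.59 for F2, 7.33 for F9, 7.90 for F13B and 1.62 for PROC, and 5.09 for APOH, 4.69 for VTN and 2.31 for AGT. Without Ujumqin day 25 replicate 1, 4 of the 25 moved as far, to 5.20 for ALB, 5.46 for HRG, 10.39 for F13B and 14.55 for F9. F9 was at 8.90 without either of the other Hulunbuir day 16 replicates. F13B lost its call in voom (adjusted p = 0.0514). APOH, F9, HPX and ITIH2 had no adjusted p in DESeq2 and so no call there. PROC lost its call without any one day 25 library of either breed or without Hulunbuir day 16 replicate 1 or 3 (adjusted p 0.0564 to 0.0674).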

How the results depend on the processing

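No member called in a comparison changed sign in any alternative fit. The number of members called stayed within 1.5-fold in every alternative except these. At day 16, where none of the 35 was called, DESeq2 called 21 (4 had no adjusted p), voom with group weights 12 and edgeR on all 12 libraries 24. At day 25, edgeR on all 12 libraries called 15 instead of 35, and the cause was not tested. DESeq2 also gave no adjusted p to 4 members for each age change and for the breed difference in age change. Leaving out single libraries gave 0 to 0 members at day 16, 34 to 35 at day 25, 21 to 27 with age in Hulunbuir, 18 to 22 with age in Ujumqin and 24 to 27 for the breed difference in age change. Over all genes, the day 16 count of 3 became 1608 with DESeq2, 487 with voom, 2459 on 12 libraries, 293 with the replicate block, 200 without Ujumqin replicate 3 and 0 without each of the other 5 libraries in turn or with limma on log2(FPKM + 1). The day 25 count of 6716 became 2440 on 12 libraries, and the 2804 for the breed difference in age change became 1561 without Hulunbuir day 25 replicate 1. With the replicate block, 35 members were called between breeds at day 25, 23 with age in Hulunbuir, 21 with age in Ujumqin and 26 for the breed difference in age change. With age in Ujumqin the block ended the calls of APOH and SERPINA1 and gave one to PROC (adjusted p = 0.0464), and it gave one to F10 for the breed difference in age change (adjusted p = 0.0454); it changed no other member's call. At day 25 each library correlated best with its own number. The lack of member calls at day 16 does not show that differences were absent there.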

Other observations

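Receptors that take up plasma proteins and signals known to act on their genes were also measured. Of 21 receptor and clearance genes tested, 9 were higher and 6 lower in Hulunbuir at day 25, against 23.3% and 22.7% of all genes tested, and 2 were higher and 12 lower at day 25 than at day 16 in Ujumqin, against 30.7% and 32.9% of all genes tested. TFR2, the transferrin receptor of liver and red cell precursors, was at 95.6, 100.4 and 95.9 FPKM in Hulunbuir day 25 embryos and 11.5, 9.11 and 11.8 FPKM in Ujumqin day 25 embryos. The breeds did not overlap for TFR2 (log2 change 2.84 ± 0.11, adjusted p = 1.27e-06). STRA6, the cell-surface receptor of RBP4, was at 15.3, 15.03 and 15.1 FPKM in Hulunbuir day 25 embryos and 14.8, 15.2 and 15.3 FPKM in Ujumqin day 25 embryos, and at day 16 it was at 16.7, 4.51 and 10.5 FPKM in Hulunbuir day 16 embryos and 4.07, 1.26 and 2.51 FPKM in Ujumqin day 16 embryos. STRA6 rose with age in Ujumqin (2.67 ± 0.44, adjusted p = 3.14e-04), while RBP4 was not called there (-0.68 ± 0.56, adjusted p = 0.305).

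MTTP, which loads lipid onto apolipoprotein B, fell with age in Hulunbuir (-2.18 ± 0.40, adjusted p = 0.00165) and in Ujumqin (-6.06 ± 0.49, adjusted p = 3.85e-06), and APOB itself fell in Hulunbuir (-2.10 ± 0.60, adjusted p = 0.0171) and in Ujumqin (-4.67 ± 0.67, adjusted p = 1.31e-04). Of 13 genes of the acute-phase and IL6 pathway, 2 were higher and 3 lower in Hulunbuir at day 25, against the same 23.3% and 22.7%. IL6R, the receptor subunit for IL6, was at 1.76 ± 0.258 FPKM in Hulunbuir and 2.65 ± 1.14 FPKM in Ujumqin at day 25, and at 12.01 ± 11.8 FPKM in Hulunbuir and 34.8 ± 13.4 FPKM in Ujumqin at day 16 (mean ± SD, n = 3). IL6R fell with age in Hulunbuir (-3.04 ± 0.67, adjusted p = 0.00463) and in Ujumqin (-3.60 ± 0.69, adjusted p = 8.76e-04).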
